A study of Homo sapiens with 36 samples.

Results

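SW1783, an astrocytoma line, and HT29, a colorectal adenocarcinoma line, were compared here in how their genes answered a medium dose of ACD, the hot-water extract of the processed lateral root of Aconitum carmichaeli Debeaux. The measure was the log2 change of SW1783 cells at 100 ug/mL from their vehicle, minus the log2 change of HT29 cells at 100 ug/mL from theirs. All genes were tested, and the genes that moved the same way in both lines were taken as well. This used 12 of the 36 libraries and gave an adjusted p for 13731 of the 60675 genes in the table.

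Each line gave 3 libraries of cells exposed to ACD for 24 h and 3 of vehicle cells of the same batch, labelled batch B. The vehicle libraries are labelled 0.1% DMSO (dimethyl sulfoxide, a solvent). The design text gives 2% for the vehicle, and the ACD stock was made in phosphate-buffered saline with 2% DMSO. Both were diluted on addition to the wells, and the volumes in the paper take 2% to about the labelled 0.1%. SW1783 was kept in Leibovitz's L-15 medium without added CO2 and HT29 in DMEM with CO2. Fewer SW1783 than HT29 cells were plated per well, in the same volume of medium. A difference between the lines thus cannot be told apart from a difference between the media or in ACD per cell plated. Both are established lines and each stands for 1 tumor. Of the markers, KRT20, CDX2 and LGALS4 of the intestinal epithelium were at 0 in all 6 SW1783 libraries, and COL1A2, SPARC and CHI3L1 at 0 in all 6 HT29 libraries. Other markers were counted in both lines. KRT18 lay at 153 to 230 CPM (counts scaled to the library total) in SW1783 and 3160 to 3660 CPM in HT29, and CD44 at 2130 to 2840 CPM in SW1783 and 488 to 551 CPM in HT29. S100A6, listed with the mesenchymal and glial markers, was the higher in HT29, at 1110 to 1910 CPM against 795 to 1010 CPM. GFAP, the defining filament of astrocytes, lay at 0.0424 to 0.261 CPM in SW1783, close to the limit of 0.0943 to 0.164 CPM that a count of 0 allows over the 12 libraries.

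Library totals ran from 18260755 to 31811972 counts. Vehicle replicate 1 of HT29 stood apart from its group. Its counts differed from those of replicates 2 and 3 with a chi-square per degree of freedom of 15.12 and 17.3, where replicates 2 and 3 differed by 4.04, and MT-ATP8, MT-ND6, ATP5MK and ROMO1 were among the genes higher in it. Several counts of genes are also given without it.

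Cells answer amino acid shortage, misfolded protein in the endoplasmic reticulum (ER) and mitochondrial trouble through the integrated stress response. In it, kinases phosphorylate the initiation factor eIF2, general translation falls, and the transcription factor ATF4 raises genes of amino acid uptake and synthesis, tRNA charging and the factor CHOP (DDIT3), by way of C/EBP-ATF elements. The aryl hydrocarbon receptor (AhR) is a ligand-activated transcription factor. It binds planar aromatic compounds of plants and pollutants, pairs with ARNT, and raises xenobiotic-metabolizing enzymes such as CYP1A1 from elements with the core GCGTG; TIPARP and AHRR are raised by it and restrain it in return.

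The promoters of 1 gene of each pathway are printed with the runs of letters that match these elements. Both are the 250 bases before the start site in RefSeq on GRCh38.p14, 5′ to 3′ on the strand of the gene. Capitals mark matches to the C/EBP-ATF letters TGATGNAA (in CHAC1 on the other strand, read as TTGCATCA) and to the AhR core GCGTG. Both strands were searched, and the CHAC1 window held a GCGTG as well. CHAC1, a glutathione-degrading enzyme raised by ATF4, lies at chr15:40952962-40956512, plus strand, and the window is chr15:40953221-40953470. CYP1A1 lies at chr15:74719542-74725536, minus strand, and the window is chr15:74725529-74725778.
CHAC1: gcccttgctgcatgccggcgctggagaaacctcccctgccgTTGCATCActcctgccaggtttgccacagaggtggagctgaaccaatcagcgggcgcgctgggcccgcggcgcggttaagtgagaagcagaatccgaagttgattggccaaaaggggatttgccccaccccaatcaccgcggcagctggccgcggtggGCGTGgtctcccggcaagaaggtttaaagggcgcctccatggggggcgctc
CYP1A1: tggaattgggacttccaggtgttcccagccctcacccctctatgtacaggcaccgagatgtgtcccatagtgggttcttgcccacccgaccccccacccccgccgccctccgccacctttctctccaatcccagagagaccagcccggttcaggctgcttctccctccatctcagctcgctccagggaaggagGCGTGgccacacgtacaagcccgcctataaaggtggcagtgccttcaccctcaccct
Of the 27305 genes with a RefSeq window, 3.89% held TGATGNAA and 36.2% held GCGTG in at least 1 of their windows. TGATGNAA was present in 4 of the 16 integrated stress response genes with a window, and GCGTG in 4 of the 10 genes of the AhR list (40%). GCGTG was also in 10 of the 16 integrated stress response genes (62.5%) and in 10 of the 18 genes with a window in the list of NRF2, a factor of the oxidative stress response (55.6%). A match is a run of letters in this window and not a measured site.

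At an adjusted p under 0.05 and a change over 1.5-fold, a rule used for every call in the text, 546 of 14920 genes changed in SW1783 (3.66%; 309 rose, 2.07%, and 237 fell, 1.59%) and 181 of 13731 in HT29 (1.32%; 96 rose, 0.699%, and 85 fell, 0.619%). The difference itself passed for 514 genes (3.74% of 13731), with 255 more positive in SW1783 (1.86%) and 259 more positive in HT29 (1.89%), so that 49.6% were more positive in SW1783. This split moved with the scaling, to 299 and 223 (57.3%) with size factors set within each line, 274 and 243 with size factors derived from TMM (trimmed mean of M values), and 350 and 277 (55.8%) with edgeR. Of the 514, 230 were also called in SW1783 alone, 63 in HT29 alone, 7 in both with the same sign and 9 in both with opposite signs. The remaining 205 were called in neither line. Among the 365 called differences that averaged at least 50 normalized counts in each line, the SW1783 change was the larger in size for 280 and the HT29 change for 85. Without HT29 vehicle replicate 1, 425 differences were called, and 125 genes in HT29 in place of 181. The HT29 count was 107 without HT29 vehicle replicate 2 and 105 without HT29 ACD replicate 3.

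**Figure D1:**
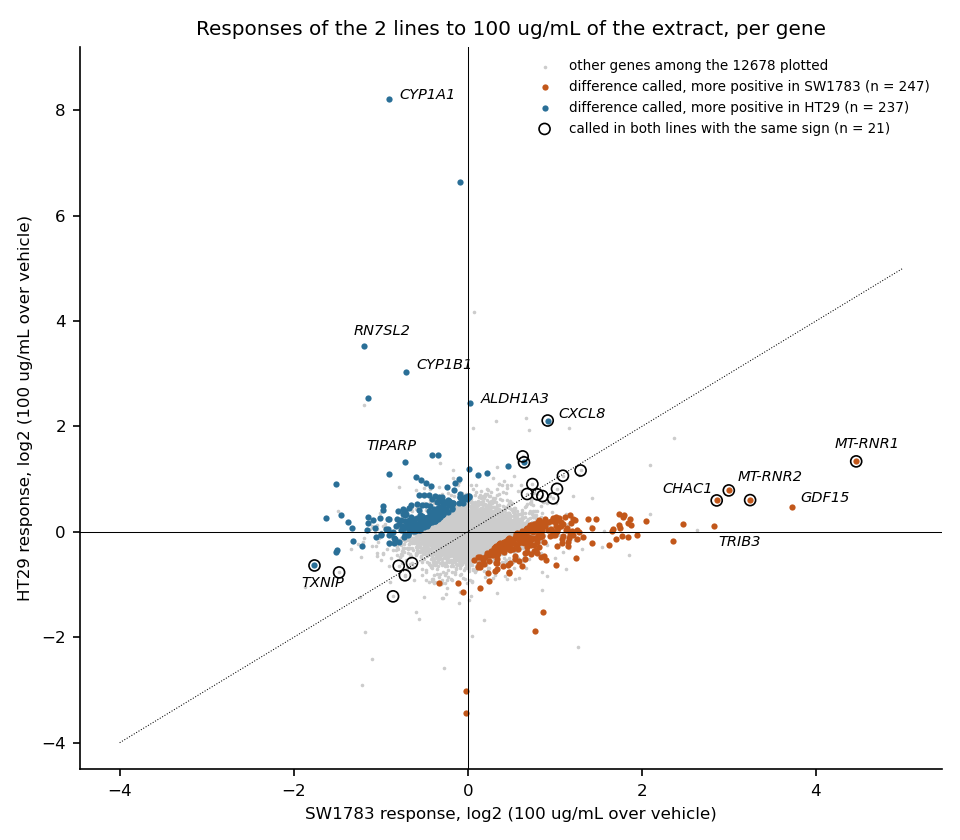
Log2 change at 100 ug/mL from vehicle in SW1783 (x axis) and HT29 (y axis) for the 12678 genes with an adjusted p in at least 1 comparison that averaged at least 10 normalized counts in each line; the dotted line marks equal change. Orange and blue points are genes whose difference passed (247 and 237 of those plotted) and rings mark the 21 genes called in both lines with the same sign; SW1783 genes spread along the x axis and CYP1A1 stands alone at the top.

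Across the 13031 genes counted at 10 or more in both lines, the changes had a Spearman correlation of 0.0546 and a Pearson correlation of 0.058, and 51.8% had the same sign. This describes genes of the same 12 libraries, which are not independent replicates. The 403 genes of this set called in SW1783 had a median change of 0.80 (log2, size) there and of 0.08 in the same direction in HT29, where 252 of them (62.5%) had the same sign. The 147 called in HT29 had a median of 0.76 there and of 0.12 in the same direction in SW1783, where 90 (61.2%) had the same sign. Both sets hold the genes called in both lines.

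Genes of the integrated stress response rose in SW1783, and all but CHAC1 missed the rule in HT29. Of the 17 genes tested, 14 had a called difference and all 14 were more positive in SW1783, where 3.74% of all genes had a called difference; the median difference was 1.18 (log2) against -0.02 over all genes tested. In SW1783 13 of the 17 rose and none fell, and in HT29 CHAC1 alone rose. Over all genes tested, 2.07% rose and 1.59% fell in SW1783, and 0.699% rose in HT29. These shares apply to each list that follows as well. The lists were drawn up with earlier results of these data known, so a share above that of all genes is a description only. ATF4 itself rose 2.70-fold in SW1783 (log2 1.43 ± 0.05, SE), and its HT29 value was 0.07 ± 0.05. CHOP (DDIT3) gave 1.84 against -0.10, ATF3 1.86 against 0.24, and SESN2, a brake on mTORC1 signaling, 1.87 against 0.12. ATF5, STC2 and VLDLR were the 3 with no called difference, at -0.03, 0.40 and 0.35.

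GDF15 (chr19:18374731-18389176, plus strand), a secreted stress cytokine, carried the largest SW1783-sided difference among genes well counted in both lines after ENSG00000280800, described further on. Its normalized counts were 69.3, 91.5 and 94.2 in SW1783 vehicle and 1062, 1117 and 1197 with ACD. HT29 held 940.4, 862 and 825 in vehicle and 1230, 1164 and 1258 with ACD. Treated SW1783 cells thus reached the level that HT29 cells already had. The vehicle and ACD groups did not overlap in either line, as was the case for 47.5% of genes tested in SW1783 and 30.3% in HT29. These shares apply wherever vehicle and ACD groups are said not to overlap. The changes were 3.72 ± 0.12 and 0.48 ± 0.07, the latter under 1.5-fold, and the difference was 3.25 ± 0.14 (adjusted p = 6.68e-117).

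TRIB3 (chr20:362835-397559, plus strand), a pseudokinase that feeds back on ATF4 and CHOP, rose from 477, 376 and 433 to 2913, 3108 and 3072 in SW1783. In HT29 it read 987, 945 and 926 in vehicle and 1093, 965 and 1041 with ACD, and these groups overlapped. The difference was 2.71 ± 0.11 (adjusted p = 3.41e-139). CHAC1, whose promoter is printed earlier, went from 96.1, 82.0 and 96.4 to 666, 629 and 692 in SW1783 and from 69.8, 50.5 and 53.2 to 93.4, 76.0 and 89.4 in HT29. Both lines rose without overlap, 7.27-fold and 1.51-fold, and the difference was 2.26 ± 0.22 (adjusted p = 1.35e-22). The HT29 call is at the edge of the rule: its log2 change of 0.60 became 0.49 without vehicle replicate 2, 0.55 without vehicle replicate 3, 0.54 without ACD replicate 1 and 0.57 without ACD replicate 3.

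NUPR1, a small chromatin-associated stress protein, went from 139.7, 145 and 164 to 623, 715 and 657 in SW1783 and was hardly present in HT29, with 15.9, 11.4 and 7.88 in vehicle and 8.40, 7.37 and 8.38 with ACD. Its difference was 2.68 ± 0.40 (adjusted p = 1.79e-09).

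Genes of amino acid and one-carbon synthesis followed the same pattern. Of 17, 10 were called more positive in SW1783 (58.8%, against 3.74% of all genes tested) and none in HT29, with a median difference of 0.81. In SW1783 12 of 17 rose, and in HT29 none was called. ASNS (chr7:97851677-97872542, minus strand), which makes asparagine, stood at 1124, 1118 and 1095 in SW1783 vehicle and 4474, 4605 and 4690 with ACD. HT29 gave 1236, 1246 and 1266 in vehicle and 1457, 1428 and 1448 with ACD. The vehicle levels of the lines lay close together, the groups did not overlap in either line, and the increase was 4.13-fold in SW1783 against 1.16-fold in HT29 (difference 1.84 ± 0.06, adjusted p = 1.12e-180). PSAT1 and PHGDH, enzymes of serine synthesis, had differences of 1.67 ± 0.07 and 1.28 ± 0.13, MTHFD2 of the mitochondrial folate pathway 0.96 ± 0.06, and CTH, which makes cysteine, 1.22 ± 0.21. CBS, the enzyme before CTH, rose in SW1783 (1.90 ± 0.15) and was at 0 in 5 of 6 HT29 libraries, so its difference was not measurable.

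Amino acid transporters split. SLC7A5, its partner chain SLC3A2, SLC1A4 and SLC38A1 were the 4 of 14 with a called difference, all more positive in SW1783 and with values of 1.23, 0.61, 0.96 and 0.71. These were 28.6% of the list, against 3.74% of all genes tested, and the list median was 0.23. Without HT29 vehicle replicate 1, without HT29 ACD replicate 2 and with the batch A vehicle 3 of the 14 were called, where SLC7A5, SLC1A4 and SLC38A1 kept their calls. SLC7A11, the cystine importer, instead rose in both lines, from 3120, 3037 and 2964 to 5930, 6058 and 6013 in SW1783 and from 2886, 3157 and 3241 to 4693, 5037 and 4707 in HT29. It began at nearly the same level in both, and its difference of 0.34 ± 0.07 had a 95% interval of 0.21 to 0.48, inside 1.5-fold.

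Cytosolic tRNA synthetases, which charge tRNAs with amino acids, held 4 called differences of 20 (20%, against 3.74% of all genes tested). All were more positive in SW1783 (AARS1 0.81, GARS1 0.81, SARS1 0.67 and YARS1 0.64), and the list median was 0.38. In SW1783 9 of 20 rose, and in HT29 none was called. Among ER folding and unfolded protein response genes 3 of 18 passed (16.7%), all more positive in SW1783, and the median was 0.37. HERPUD1, of ER-associated degradation, had 1.27 ± 0.07, the chaperone HSPA5 0.72 ± 0.04 and its cochaperone DNAJB9 0.72 ± 0.13 (0.58 and not called with the batch A vehicle). HSPA5 stood at 81495, 79810 and 81580 in SW1783 vehicle and 146349, 147695 and 142804 with ACD, and at 8178, 8209 and 8396 in vehicle and 9345, 8708 and 8923 with ACD in HT29. It rose in SW1783, and its HT29 change of 0.12 (adjusted p = 0.00299) was under 1.5-fold.

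**Figure D2:**
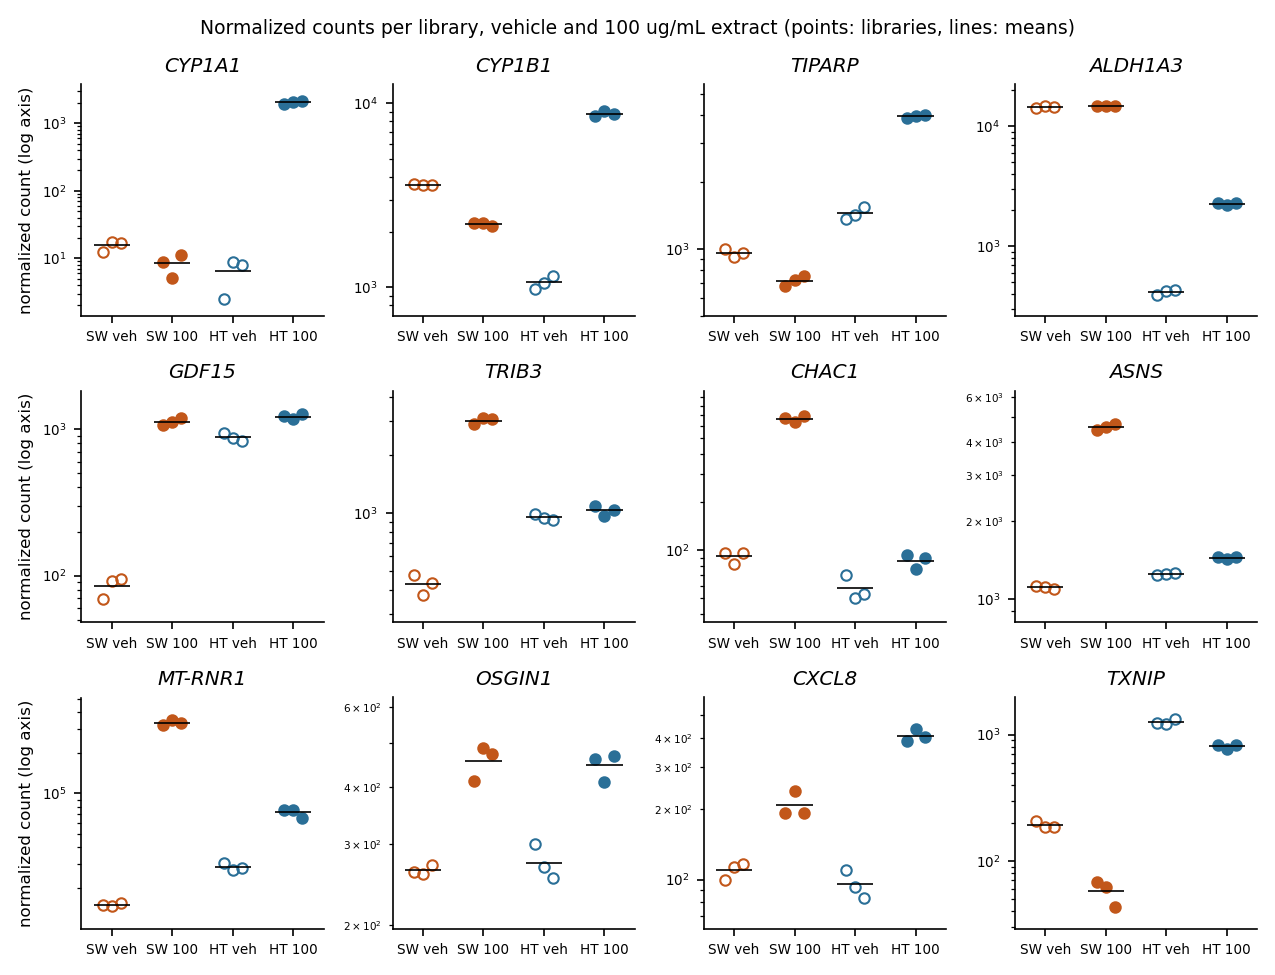
Normalized counts (log axis) of 12 genes in the 3 vehicle and 3 ACD libraries of SW1783 (SW, orange) and HT29 (HT, blue); open points are vehicle libraries, filled points ACD at 100 ug/mL and lines the group means. CYP1B1, TIPARP and ALDH1A3 rise in HT29 alone, TRIB3 and ASNS most in SW1783, and OSGIN1 and CXCL8 in both lines.

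HKDC1, a hexokinase-like glucose kinase, and ATP2A3, the SERCA3 calcium pump of the ER, were among the largest SW1783-sided differences outside the stress genes. HKDC1 went from 40.2, 58.1 and 40.8 to 243, 276 and 261 in SW1783, and HT29 read 555, 620.0 and 589 in vehicle and 658, 656 and 638 with ACD (difference 2.33 ± 0.18, adjusted p = 6.95e-37). ATP2A3 went from 30.2, 34.3 and 43.1 to 167, 186 and 194, against 558, 568 and 562 in vehicle and 502, 480.1 and 509.5 with ACD in HT29 (difference 2.54 ± 0.19, adjusted p = 1.62e-36). For both genes the treated SW1783 libraries stayed under every HT29 library.

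The AhR axis went the other way. Of its 13 genes tested, 8 had a called difference (61.5%, against 3.74% of all genes tested). All 8 were more positive in HT29, and the median difference was -1.18. In HT29 5 rose and none fell, and in SW1783 4 fell and none rose. Fitted separately per line, 4 of the 8 genes then tested passed and the median was -0.47. Of the receptor and its partner, AHR read 2403, 2355 and 2459 in SW1783 vehicle and 2218, 2348 and 2559 in HT29 vehicle, and neither AHR (difference 0.20 ± 0.08, adjusted p = 0.0672) nor ARNT (-0.12 ± 0.10, adjusted p = 0.461) passed.

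CYP1A1, whose promoter is printed earlier, had the largest difference of all genes tested. HT29 libraries held 2.45, 8.75 and 7.88 in vehicle and 1944, 2046 and 2147 with ACD, a 296-fold rise. SW1783 libraries held 12.3, 17.1 and 17.0 in vehicle and 8.77, 5.08 and 11.2 with ACD. The SW1783 groups did not overlap, as for 47.5% of genes tested in that line, and lay lower with ACD. The change of -0.90 ± 0.38 did not pass (adjusted p = 0.0689). The difference was -9.11 ± 0.49 (adjusted p = 1.15e-73).

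CYP1B1 (chr2:38066973-38109902, minus strand), which hydroxylates estrogens and aromatic compounds, moved in opposite directions. It fell from 3635, 3601 and 3596 to 2233, 2236 and 2151 in SW1783 and rose from 978, 1056 and 1160 to 8521, 9068 and 8741 in HT29. The SW1783 vehicle level was the higher at the start and the HT29 level the higher after ACD, with no overlap between any of the 4 groups. Changes of -0.71 ± 0.05 and 3.04 ± 0.05 gave a difference of -3.75 ± 0.07, with an adjusted p below what the software prints. TIPARP, a repressor of AhR, read 1000, 917 and 955 in vehicle and 680.3, 721 and 751 with ACD in SW1783, and 1364, 1425 and 1539 in vehicle and 3884, 3980 and 4024 with ACD in HT29. It rose in HT29, its SW1783 change of -0.41 was under 1.5-fold, and the difference was -1.87 ± 0.09 (adjusted p = 7.8e-104).

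AHRR, a second repressor of the receptor, fell in SW1783 (-0.71 ± 0.09) and read 0.34 ± 0.13 in HT29, for a difference of -1.06 ± 0.16. CYP2S1 fell in SW1783 (-0.64 ± 0.13), with a difference of -0.88 ± 0.16. ALDH3A1, an aldehyde dehydrogenase, went from 509, 478 and 464 to 1182, 1192 and 1218 in HT29 and was near absent from SW1783, with 6.71, 12.4 and 9.07 in vehicle and 3.76, 4.06 and 5.11 with ACD. UGT1A6 and UGT1A1, glucuronidating enzymes, had differences of -2.30 ± 0.59 and -1.18 ± 0.38. Genes of the UGT1A locus share exons, so reads can be split between them, and UGT1A6 held 5.59, 9.53 and 11.3 normalized counts in SW1783 vehicle and 0, 0 and 8.18 with ACD. Its SW1783 fall (-1.61) missed the rule without vehicle replicate 2 (-1.54) or 3 (-1.41) and without ACD replicate 1 (-1.12) or 2 (-0.98), and its difference was -0.93 and not called with the batch A vehicle. NQO1, raised by both AhR and NRF2, read 0.24 and 0.36 with no called difference (-0.12 ± 0.06).

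ALDH1A3, which makes retinoic acid, is not in the AhR list and had one of the largest HT29-sided differences. It stood at 393, 420.1 and 429 in HT29 vehicle and 2301, 2225 and 2279 with ACD. SW1783 was far above that in both states, at 14272, 14744 and 14523 in vehicle and 14754, 14865 and 14768 with ACD, and these groups differed by 0.03 (adjusted p = 0.56). The difference between the lines was -2.42 ± 0.06, with an adjusted p below what the software prints.

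Genes of the NRF2 axis, the antioxidant response, were divided. Of 25 tested, 3 were called more positive in SW1783 and 4 more positive in HT29, and the median was -0.13. These are 28% in all, against 3.74% of all genes tested. In SW1783 6 rose and 1 fell, and in HT29 5 rose. The SW1783-sided genes were those of iron and heme, HMOX1 (0.73 ± 0.11), FTH1 (0.76 ± 0.12) and FTL (0.62 ± 0.10). The HT29-sided genes were the aldo-keto reductases AKR1B10 (-1.25 ± 0.14), AKR1C1 (-0.69 ± 0.15), AKR1C2 (-0.94 ± 0.17) and AKR1C3 (-1.17 ± 0.18). Ferritin genes have many processed pseudogenes and the AKR1C genes are close copies of each other, so these values are uncertain in how reads were divided. The SW1783 fall of AKR1C3 (-0.66) became -0.52 without ACD replicate 3, and the HT29 rise of AKR1C2 (0.62) became 0.55 without vehicle replicate 2. GCLC, which begins glutathione synthesis, rose in SW1783 (0.67 ± 0.06) and read 0.50 ± 0.05 in HT29, while TXNRD1, thioredoxin reductase, rose in HT29 (0.68 ± 0.04) and read 0.24 ± 0.04 in SW1783. Neither of the last pair had a called difference.

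Some inflammatory genes rose in each line, and the called differences lay on the HT29 side. Of 20 tested, 6 had a called difference (30%, against 3.74% of all genes tested), all more positive in HT29, with a list median of -0.17. In SW1783 8 of 22 rose and 1 fell, and in HT29 6 of 20 rose. CXCL8 (chr4:73740519-73743716, plus strand), the neutrophil-attracting interleukin 8, rose from 99.5, 113 and 117 to 192, 239 and 192 in SW1783 and from 110.2, 92.9 and 83.7 to 387, 438 and 404 in HT29. The vehicle groups of the lines overlapped, ACD and vehicle did not overlap in either line, and HT29 ended higher, for a difference of -1.20 ± 0.21 (adjusted p = 2.94e-07). CXCL1 rose in HT29 from 44.1, 32.3 and 33.5 to 306, 269.9 and 306, while SW1783 held 4.47, 4.76 and 3.40 in vehicle and 5.01, 4.06 and 7.15 with ACD. PTGS2, the inducible cyclooxygenase, rose in HT29 from 309.8, 351 and 368 to 599, 676 and 614 and went from 2152, 2159 and 2299 to 1709, 1689 and 1551 in SW1783, without overlap in either line and with a difference of -1.29 ± 0.10 (adjusted p = 1.27e-32). Its SW1783 change of -0.42 was under 1.5-fold.

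C3, the central complement component, was a gene of SW1783, where it read 1120, 1196 and 1146 in vehicle and 1121, 1081 and 1061 with ACD. In HT29 it read 1.23, 0 and 0 in vehicle, which is 1 count in all, and 26.2, 29.5 and 43.8 with ACD. The HT29 rise passed (adjusted p = 1.95e-06) and so did the difference (adjusted p = 6.59e-07), but a fold against 1 count is not given. IL6, IL1B, ICAM1 and RELB rose in SW1783 and had no called difference; IL6 read 0.95 ± 0.24 in SW1783 and 0.91 ± 1.68 in HT29. CXCL2 and CXCL3 rose in SW1783 too and were counted too low for an adjusted p of the difference.

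DNA replication and mitosis genes leaned one way by small amounts. In bulk libraries, fewer cells in a phase and less RNA per cell cannot be told apart. All 26 replication genes tested had a negative difference, that is, lower with ACD in SW1783 relative to HT29, with a median of -0.40; 7 passed the rule and 22 had an adjusted p under 0.05 at any size. Of 24 mitosis genes 23 were negative, 2 passed, 20 had an adjusted p under 0.05, and the median was -0.35. Of all 13731 genes, 1563 had a negative (11.4%) and 848 a positive difference (6.18%) with an adjusted p under 0.05 at any size. By the rule, 1.89% of all genes had a called negative difference. In SW1783 4 replication genes fell (CCNE2, RRM2, TYMS and FEN1) and in HT29 none was called. RRM2, of the ribonucleotide reductase, went from 5048, 4814 and 4741 to 2955, 3084 and 2918 in SW1783 and from 5784, 6062 and 6280 to 6438, 6709 and 6469 in HT29. The SW1783 groups lay far apart and the HT29 groups side by side without overlap, for a difference of -0.82 ± 0.06 (adjusted p = 3.5e-38). The helicase subunit MCM3 had -0.71 ± 0.05, cyclin CCNE2 -0.86 ± 0.14 and the proliferation marker MKI67 -0.82 ± 0.12. KIF20A, the other called mitosis gene, was at the edge of the rule (-0.59, and -0.55 to -0.57 without any of HT29 vehicle replicates 1 and 2, HT29 ACD replicate 1, SW1783 vehicle replicate 1 and SW1783 ACD replicate 3). MKI67 and KIF20A both missed the rule in a fit of all 24 batch B libraries, at -0.81 and -0.58.

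**Figure D3:**
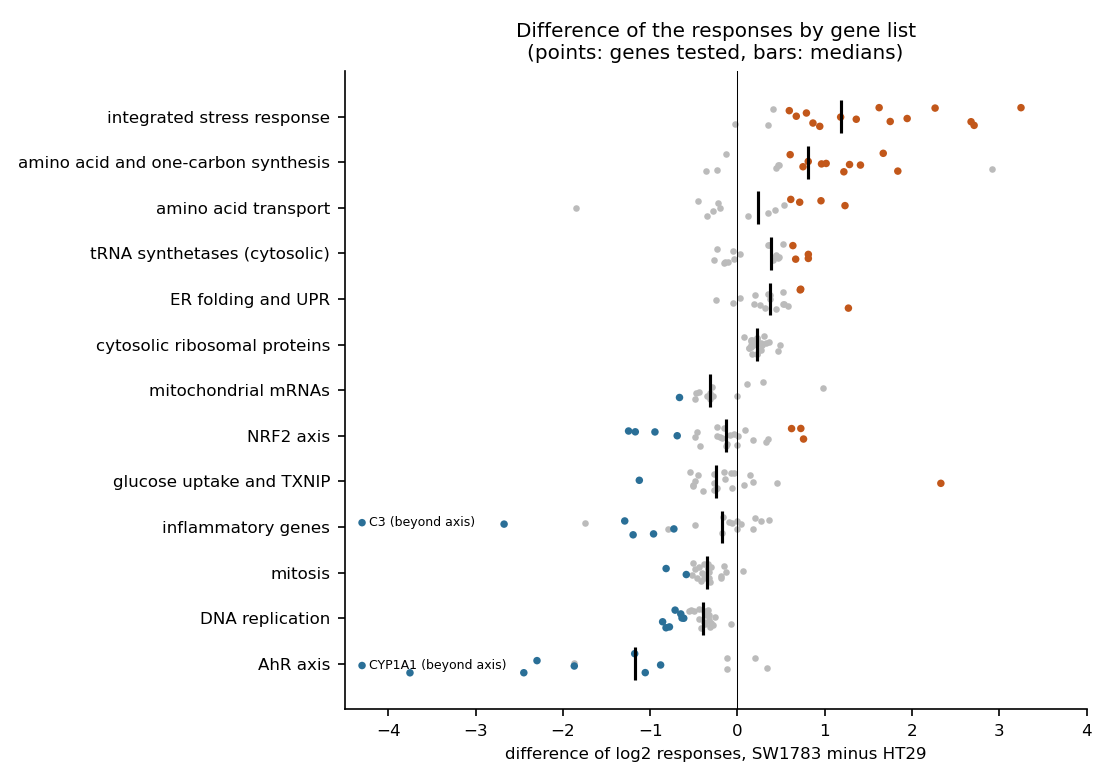
Difference of the log2 responses, SW1783 minus HT29 (x axis), for the tested members of 13 gene lists; orange and blue points are genes whose difference passed the rule, grey points those that did not, and bars are list medians. CYP1A1 (-9.11) and C3 (-6.72) lie beyond the axis and are drawn at its edge; the integrated stress response lies to the right and the AhR axis to the left.

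The mitochondrial ribosomal RNAs rose in both lines and far more in SW1783. MT-RNR1 (12S; chrMT:648-1601, plus strand) went from 14948, 14672 and 15643 to 321611, 347759 and 329524 normalized counts in SW1783 and from 30861, 27256 and 28006 to 75808, 75961 and 65963 in HT29. MT-RNR2 (16S; chrMT:1671-3229, plus strand) went from 188927, 185559 and 196899 to 1513080, 1580304 and 1479088 and from 241758, 216805 and 228532 to 415580, 400458 and 369249. No groups overlapped, and SW1783 began below HT29 and ended above it for both RNAs. Their differences were 3.13 ± 0.09 (adjusted p = 5.05e-283) and 2.21 ± 0.07 (adjusted p = 5.81e-199). Together they took 0.931% ± 0.025 (SD, n = 3) of all counts in SW1783 vehicle and 7.83% ± 0.2 with ACD, against 1.18% ± 0.04 and 2.1% ± 0.12 in HT29. The labels describe an mRNA library, in which ribosomal RNA is a remnant, so how much of each RNA the library step kept was not tested.

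The mitochondrial mRNAs did not share that increase. Their summed share was 4.21% ± 0.11 of counts in SW1783 vehicle and 2.83% ± 0.055 with ACD, and 8.28% ± 0.66 and 7.21% ± 0.41 in HT29. Of the 13, 5 fell in SW1783 and none rose, while in HT29 MT-ND1 and MT-ND2 rose and MT-ND6 fell; the last had 15255, 8428 and 7077 in HT29 vehicle, highest in the replicate that stood apart, and its change of -0.93 was -0.53 without it and -0.83, no longer past the rule, without ACD replicate 3. The HT29 rise of MT-ND1 (0.64) was 0.49 without vehicle replicate 2 and 0.57 without ACD replicate 2. The only called difference of the 13 was MT-ND2 (-0.67 ± 0.10, adjusted p = 1.47e-10), and the median was -0.31. It was -0.66 and not called in the fit of all 24 batch B libraries. This 1 gene is 7.69% of the list, against 3.74% of all genes tested. The difference of MT-ND6 (0.98 ± 0.38, adjusted p = 0.0511) missed the rule narrowly and passed with TMM-derived size factors. MT-ND2 read 59729, 56115 and 62395 in vehicle and 58912, 59980 and 60078 with ACD in SW1783 and 90745, 75929 and 89918 in vehicle and 144449, 138020 and 126936 with ACD in HT29, where alone its groups did not overlap.

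**Figure D4:**
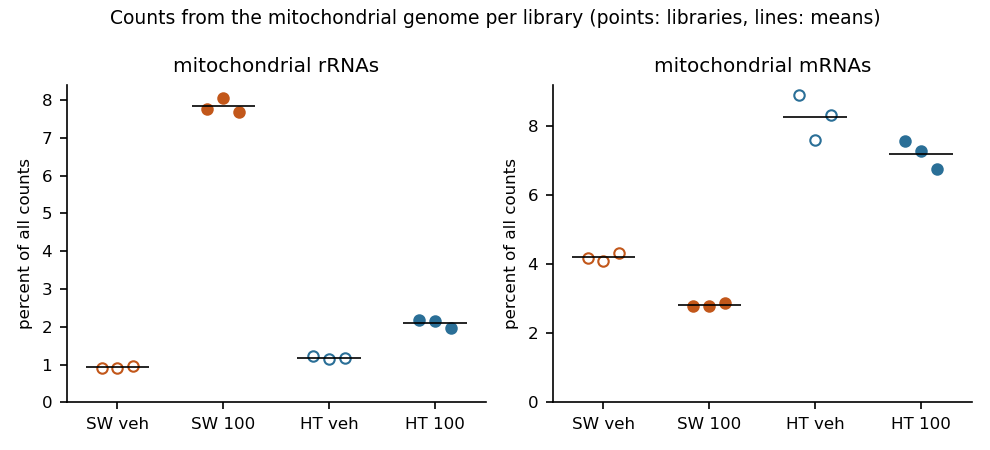
Percent of all counts from the mitochondrial rRNAs (left) and the 13 mitochondrial mRNAs (right) in each library; open points are vehicle, filled points ACD at 100 ug/mL, lines are group means and the axes start at 0. The rRNA share in SW1783 rises from about 0.931% to 7.83%, while the mRNA share falls from 4.21% to 2.83%.

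RN7SL1 and RN7SL2, copies of the RNA of the signal recognition particle, had some of the largest HT29-sided differences, -3.70 ± 0.52 and -4.72 ± 0.67. RN7SL2 read 202, 141 and 107 in HT29 vehicle and 1375, 2135 and 1706 with ACD, and 109.5, 192 and 47.6 in vehicle and 52.6, 37.6 and 63.4 with ACD in SW1783. The copies are near-identical and reads cannot be placed in one or the other with certainty. The SW1783 fall of RN7SL1 (-1.15) was -0.72 without vehicle replicate 2 and -1.02, no longer past the rule, without ACD replicate 2. ENSG00000280614 and ENSG00000280800 on chromosome 21 had equal counts in SW1783 and in some HT29 libraries, such as 20397 in vehicle replicate 3. How reads were divided between them is uncertain, so they may not be separate differences. They fell in HT29 (-3.02 ± 0.33 and -3.44 ± 0.34) and not in SW1783 (-0.02 for both), with differences of 2.99 ± 0.47 and 3.41 ± 0.48. Unnamed chromosome 21 genes took 0.311% ± 0.023 of counts in HT29 vehicle and 0.0507% ± 0.0053 with ACD. As for the mitochondrial ribosomal RNAs, how much of these RNAs and of the RN7SL copies the library step kept was not tested.

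Genes called in both lines with the same sign numbered 21 (0.153% of genes tested), 15 that rose and 6 that fell, or 3.85% of the SW1783 calls and 11.6% of the HT29 calls. Of these, 7 also had a called difference, namely MT-RNR1, MT-RNR2, CHAC1, CXCL8, TXNIP, SLC22A3 and ADM2, an adrenomedullin-family peptide (2.64 ± 0.29). For 5 the whole 95% interval of the difference lay inside 1.5-fold, namely for OSGIN1, DUSP5, SLC7A11 and PGGHG, which rose, and HELLPAR, a long noncoding RNA, which fell. HELLPAR was at the edge of the rule: its SW1783 change of -0.64 was -0.63 and -0.54 without vehicle replicates 1 and 2 and -0.55 and -0.62 without ACD replicates 1 and 2, and its HT29 change of -0.59 was -0.57 without vehicle replicate 3 and -0.56 and -0.49 without ACD replicates 1 and 3, none of them called. Without HT29 vehicle replicate 1 the count was 19, and without HT29 ACD replicate 3 it was 12.

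OSGIN1, an oxidative stress-induced growth inhibitor raised by NRF2, read 262, 258 and 271 in SW1783 vehicle and 413, 487 and 473 with ACD. In HT29 it read 300.0, 267 and 253 in vehicle and 462, 411 and 469 with ACD. Starting level and end level were alike in the lines, neither overlapped, and the difference was 0.09 ± 0.15 (95% interval -0.20 to 0.38). DUSP5, a phosphatase that switches off ERK, rose from 256, 242 and 286 to 479.8, 469 and 469 in SW1783 and from 89.4, 101 and 85.7 to 150.1, 152 and 144 in HT29, with a difference of 0.18 ± 0.17 (95% interval -0.16 to 0.51). PGGHG, which removes glucose from hydroxylysine-linked sugars of collagen, had -0.04 ± 0.18 (-0.39 to 0.31), and HTR1D, a serotonin receptor, rose in both with 0.21 ± 0.26 (-0.29 to 0.71), an interval that reaches past 1.5-fold. SLC22A3, an organic cation transporter, rose in both and more in HT29 (-0.67 ± 0.21, adjusted p = 0.0125).

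TXNIP (chr1:145992435-145996579, minus strand), which binds thioredoxin and curbs glucose uptake, fell in both lines and further in SW1783. It went from 207, 187 and 186 to 67.7, 61.9 and 42.9 in SW1783 and from 1234, 1206 and 1325 to 823, 774 and 826 in HT29, without overlap in either. The difference was -1.12 ± 0.17 (adjusted p = 9.25e-10). METTL7A, a methyltransferase of the ER membrane, fell in both, with changes of -1.48 and -0.77 on the log2 scale and had no called difference (-0.71 ± 0.30, adjusted p = 0.0836).

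Opposite calls were made for 9 genes (0.0655%), of which 8 fell in SW1783 and rose in HT29 and 1, MALAT1, did the reverse. Besides CYP1B1, RN7SL1 and UGT1A6 they were VIPR1, BMF, PRDM1, SFMBT2 and LUCAT1. PRDM1, SFMBT2, LUCAT1 and UGT1A6 had a mean under 50 normalized counts in 1 line. The first 3 of these are named here after their values were seen. LUCAT1 was at the edge of the rule in SW1783, with a log2 change of -0.589 and an adjusted p that rounds to 0.05. VIPR1, the receptor of vasoactive intestinal peptide, read 55.9, 82.9 and 86.2 in vehicle and 23.8, 31.5 and 23.5 with ACD in SW1783 and 1166, 1205 and 1160 in vehicle and 2390, 2088 and 2152 with ACD in HT29 (difference -2.42 ± 0.22, adjusted p = 4.32e-25). BMF, a cell death-promoting BCL2 family member, went from 129.6, 105 and 103 to 58.9, 60.9 and 60.3 in SW1783 and from 91.8, 112 and 119 to 207, 239 and 248 in HT29, from nearly equal vehicle levels and without overlap (difference -2.00 ± 0.24, adjusted p = 3.05e-14). MALAT1, a nuclear long noncoding RNA, rose from 20133, 21244 and 21461 to 33151, 32035 and 31783 in SW1783 and fell from 26911, 23945 and 23318 to 15327, 18089 and 14239 in HT29. Its HT29 change of -0.64 was -0.57 without vehicle replicate 1 and -0.56 without ACD replicate 3, both under 1.5-fold, and its difference was 1.26 ± 0.11 (adjusted p = 4.83e-30).

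Of the called differences, some were in genes nearly silent in 1 line, with a mean of 100 or more in one and under 10 in the other; 11 were counted in SW1783 and 7 in HT29. RGS16, a brake on G protein signaling, was counted in HT29 (129.8, 118 and 118 in vehicle, 107, 116 and 98.7 with ACD) and in SW1783 read 0, 0 and 1.13 in vehicle and 2.51, 8.12 and 4.09 with ACD. IFI16, PIEZO2 and TMEM220 read 0 to 0.985 in HT29 vehicle and 0.932 to 4.66 with ACD, and no fold is given for them. The called difference of RGS16 was lost without SW1783 ACD replicate 2 (3.32 against 3.91). That of IFI16 was lost without any 1 of the HT29 vehicle libraries or HT29 ACD replicate 3 (fitted at -3.13 to -3.94), that of TMEM220 (fitted at -3.32 to -3.78) without any 1 library other than HT29 ACD replicate 3, SW1783 vehicle replicate 2 and SW1783 ACD replicate 1, and that of PIEZO2 (-2.66 to -3.52) without any 1 library other than HT29 vehicle replicate 3. With the batch A vehicle none of the 4 was called, at -0.27 for TMEM220 (adjusted p = 0.909), -0.51 for PIEZO2 (adjusted p = 0.71), -1.88 for IFI16 (adjusted p = 0.271) and 2.56 for RGS16 (adjusted p = 0.0511).

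The 20 and 500 ug/mL doses used the same vehicle libraries, so the values, from 1 fit of the 24 batch B libraries, are given side by side only. At 20, 100 and 500 ug/mL the log2 change of CYP1A1 in HT29 was 3.66, 8.22 and 8.35, and in SW1783 -0.51, -0.90 and -1.47. TIPARP read 0.76, 1.45 and 1.53 in HT29 and -0.25, -0.41 and -0.16 in SW1783. The HT29 values stood above the SW1783 values at each dose for both genes.

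Among stress genes the spacing between the lines varied with dose. GDF15 read 0.94, 3.72 and 6.79 in SW1783 and 0.31, 0.47 and 0.71 in HT29. CHAC1 read 0.69, 2.86 and 2.91 in SW1783 and 0.18, 0.59 and 3.01 in HT29, and ASNS 0.42, 2.04 and 2.84 and 0.08, 0.20 and 2.09. MT-RNR1 gave 2.63, 4.46 and 4.27 in SW1783 and -0.19, 1.33 and 4.58 in HT29, and CXCL8 -0.24, 0.92 and 4.40 and 1.38, 2.10 and 3.10. At 500 ug/mL HT29 had thus reached the SW1783 change for CHAC1 and MT-RNR1, and SW1783 had passed HT29 for CXCL8, while GDF15 stayed apart. HT29 replicate 2 at 500 ug/mL differed from its group (SD of the log2 difference per gene 0.536 and 0.511 against replicates 1 and 3, which differed by 0.158), and without it the HT29 values at that dose were 3.06 for CHAC1, 1.90 for ASNS, 4.56 for MT-RNR1 and 2.68 for CXCL8. No test between doses was made.

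**Figure D5:**
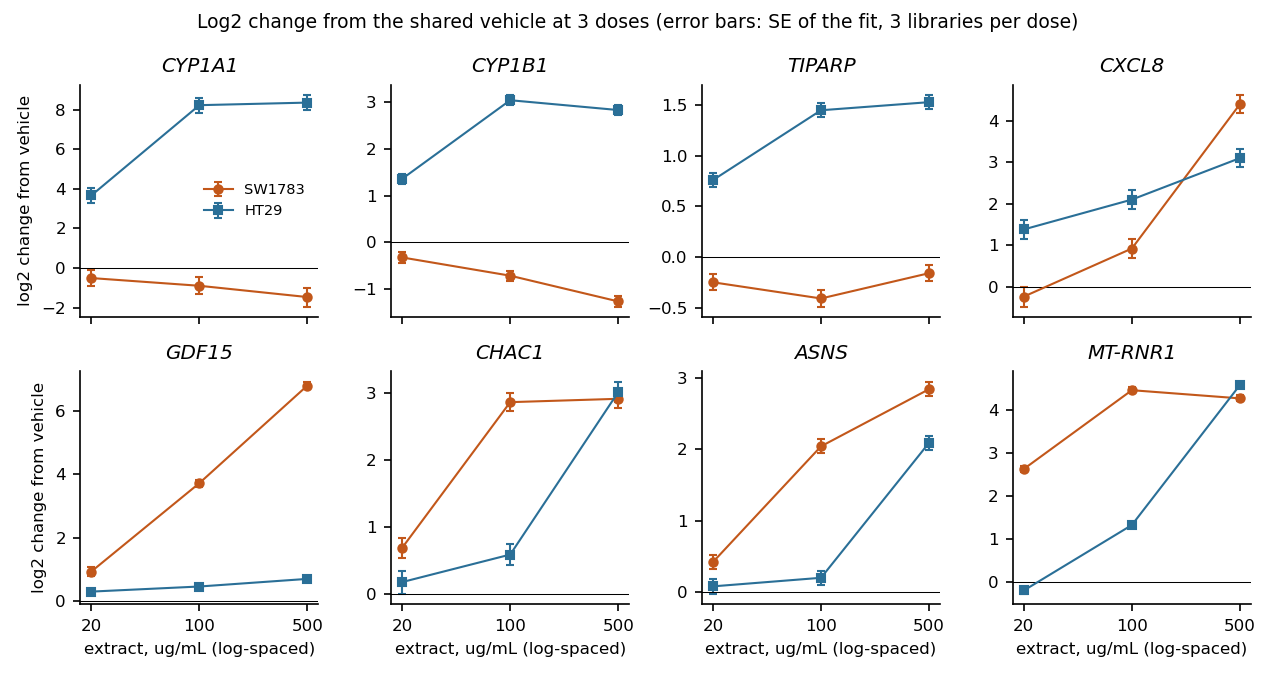
Log2 change from the shared vehicle libraries (y axis) at 20, 100 and 500 ug/mL of ACD (x axis, log-spaced) for 8 genes in SW1783 (orange) and HT29 (blue); points are fitted changes over 3 libraries a dose and bars their SE. CYP1A1, CYP1B1 and TIPARP rise in HT29 alone at each dose, and CHAC1 and MT-RNR1 are apart at 100 ug/mL and close at 500.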

How the data were processed

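RNA-seq was performed on total RNA of SW1783 and HT29 cells with a directional mRNA library kit. Per the submitters' processing notes, reads were checked with FastQC 0.11.9, trimmed with Trim Galore 0.6.5, aligned to GRCh38 (hg38) with STAR 2.7.3a and quantified with RSEM 1.3.3. The deposited values are RSEM expected counts per gene, not scaled to depth, in which the authors' software divided reads between genes that share sequence. The strand setting is not given in the sources used here. Of the expected counts, 8.84% were not whole and all were rounded before testing.

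The 12 libraries were fitted together in DESeq2 1.42.0 (R 4.3.3) with 1 coefficient per group. The difference of the responses was tested as an interaction contrast with a two-sided Wald test. Benjamini-Hochberg adjustment was over the genes left by independent filtering and by the default outlier rule of DESeq2. A call needs an adjusted p under 0.05 and a change over 1.5-fold, and errors of log2 values are standard errors. Values per library are counts divided by DESeq2 size factors. Nothing states that replicates were separate cultures, so p-values measure the spread between these samples, which may be technical. The counting floor of 3 counts covers counting error only.

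Genes were named by rule: those with the largest called differences of each sign (mean count of 50 or more in both lines, or 100 or more in one and under 10 in the other), the largest same-way and opposite responses, and up to 4 called members of each of 26 gene lists, 1 of which is not reported here. A further 2 lists are the study's network genes for brain and intestine. Further list members in the text were chosen for their roles with values known. The members and lists were chosen with earlier results of these data known. Promoters are RefSeq windows of GRCh38.p14, and gene positions are GENCODE's on GRCh38. Vehicle and ACD libraries share replicate numbers within a line, but same-numbered libraries did not deviate together. Alternatives were edgeR 4.0.16 quasi-likelihood, other size factors, a filter at 10 counts, a test against 1.5-fold, no fold threshold, separate fits, all 24 batch B libraries, the batch A vehicle, thinning to equal depth, leaving out mitochondrial, 7SL and unnamed chromosome 21 genes, a replicate block and leaving out each library. The script was tested on simulated data.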

Additional observations from a re-analysis of the deposited data

Results flagged for a closer look

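The results below were marked because the difference of the log2 responses, SW1783 minus HT29, passed the test of that difference itself (DESeq2, adjusted p under 0.05 and over 1.5-fold) among the 90 genes named by rule. There were 74, of which 38 were more positive in SW1783 and 36 in HT29. Single outlying values were screened only by the default outlier rule of DESeq2, which can leave a gene without a p-value. No explanation of any difference was tested.

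Among stress, amino acid and ER genes the log2 differences were GDF15 3.25, TRIB3 2.71, NUPR1 2.68, CHAC1 2.26, ASNS 1.84, PSAT1 1.67, ALDH1L2 1.41, HERPUD1 1.27, SLC7A5 1.23, SLC1A4 0.96, SLC38A1 0.71, AARS1 0.81, GARS1 0.81, SARS1 0.67, YARS1 0.64, HSPA5 0.72 and DNAJB9 0.72. ALDH1L2 was 0.99 and not called without HT29 vehicle replicate 2. Among AhR and aldehyde-handling genes they were CYP1A1 -9.11, CYP1B1 -3.75, ALDH3A1 -2.45, ALDH1A3 -2.42, UGT1A6 -2.30 and TIPARP -1.87, and among NRF2 and iron genes AKR1B10 -1.25, AKR1C3 -1.17, AKR1C2 -0.94 and FTH1 0.76.

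Inflammatory genes gave C3 -6.72, CXCL1 -2.67, PTGS2 -1.29 and CXCL8 -1.20, where the C3 value rests on 1 count in HT29 vehicle and is no bound. Growth and cell cycle genes gave FOS -1.19, EGR1 -0.75, MYC 0.68, CCNE2 -0.86, RRM2 -0.82, MKI67 -0.82, MCM10 -0.78, MCM3 -0.71 and KIF20A -0.59. Genes of the p53 and death pathways gave BBC3 1.84, GADD45A 0.89, TNFRSF10B 0.66, BMF -2.00 and CDKN1A -0.62. Matrix and TGF-beta genes gave CCN1 1.41, CCN2 0.85, ACTA2 0.75 and THBS1 -0.95, metal and autophagy genes MT2A 0.70, MT1E 0.64 and SQSTM1 0.59, and glucose and interferon genes HKDC1 2.33, TXNIP -1.12, IFI44 -0.70 and IFI44L -0.87.

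Mitochondrial and noncoding RNAs gave MT-RNR1 3.13, MT-RNR2 2.21, MT-ND2 -0.67, MALAT1 1.26, RN7SL1 -3.70, RN7SL2 -4.72, ENSG00000280614 2.99 and ENSG00000280800 3.41. Other genes counted in both lines were ATP2A3 2.54, VIPR1 -2.42 and ENSG00000282883 -1.46, the last without a position or type in the annotation used. Genes with few or no counts in 1 line gave ENSG00000267645 -5.36, IFI16 -3.75, TMEM220 -3.58, PIEZO2 -3.37, RGS16 3.91, HID1 1.30 and SH2D5 1.45; these fitted values are no bounds. HID1 was 1.33, 0.95 and 0.97 and not called without SW1783 vehicle replicates 1 or 2 or ACD replicate 3, and SH2D5, at 1.25 to 1.45, was not called without SW1783 vehicle replicates 1 or 2, SW1783 ACD replicates 1 or 3, HT29 vehicle replicates 2 or 3 or HT29 ACD replicates 1 or 2.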

How the results depend on the processing

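No result on a named gene changed sign under those of the 24 alternatives in which it had an adjusted p. Under all of these, 104 of the 171 results on named genes kept their side of the rule. An alternative that left the gene without an adjusted p was not scored. Leaving out the fold threshold cannot lose a call, and the test against 1.5-fold was applied to the difference alone. Of the 514 called differences, 483 were shared with edgeR, 345 with separate fits per line, 378 with the batch A vehicle and 64 with the test against 1.5-fold. With the test against 1.5-fold, 65 differences passed (46 more positive in SW1783, 19 in HT29, 70.8% positive), of the integrated stress response 9 and of the AhR axis 3. With an adjusted p and no fold threshold, 2411 differences passed (848 and 1563, 35.2% positive), 3441 genes in SW1783 (1644 rose), 1894 in HT29 (1368 rose), 359 the same way in both and 293 in opposite ways. The share of called differences more positive in SW1783, 49.6%, was 57.3% with size factors within each line, 55.8% with edgeR and 56.3% with separate fits. Separate fits gave 159 differences more positive in HT29 and 12 genes moved the same way, edgeR called 301 genes in HT29, and the batch A vehicle gave a Spearman correlation of 0.0728. The causes of these shifts were not tested, apart from the changed threshold itself. No scaling moved the median of all genes by over 0.1.

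Leaving out 1 library at a time gave 415 to 567 called differences, 201 to 293 more positive in SW1783, 204 to 274 in HT29 and 47.7% to 52.0% positive. It gave 450 to 533 calls in SW1783 (253 to 310 rose) and 105 to 208 in HT29 (the lowest without HT29 ACD replicate 3), of which 65 to 100 rose (the lowest without HT29 vehicle replicate 2). Genes moved the same way numbered 12 to 21, those moved in opposite ways 6 to 10 (6 without SW1783 vehicle replicate 2), and the Spearman correlation was 0.0365 to 0.0806.

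With the replicate number as a block, 320 differences were called (151 and 169), 344 genes in SW1783, 43 in HT29 (30 rose), 4 the same way and 4 opposite. Deviations of same-numbered libraries correlated at 0, -0.06 and 0.02 in SW1783 and at -0.06, 0.06 and -0.1 in HT29. Not every library correlated best with its own number. No shared deviation was thus seen, but with 3 libraries a group this cannot show that same-numbered libraries were handled apart.

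The median SE of the difference was 0.106 (log2) for genes counted at 100 or more in both lines, and genes near 0 in 1 line remain without a usable fold.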

Other observations

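Of 18 p53 target genes tested, 3 were more positive in SW1783, 1 in HT29, and the median difference was 0.04 (log2). These are 22.2% in all, against 3.74% of all genes tested. BBC3 (PUMA), a trigger of apoptosis, rose in SW1783 by a log2 change of 1.77 against -0.07 in HT29. GADD45A, of the DNA damage response, read 0.92 against 0.03, and the death receptor TNFRSF10B 0.72 against 0.06. CDKN1A (p21), the cell cycle inhibitor, went the other way with a difference of -0.62, which was -0.57, -0.58 and -0.58 and no longer called without HT29 vehicle replicate 2, HT29 ACD replicate 1 and SW1783 ACD replicate 1. BBC3, GADD45A and TNFRSF10B are also known as targets of ATF4 or CHOP.

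Matrix and TGF-beta genes (28 tested) held 4 differences more positive in SW1783 and 3 in HT29, with a median of -0.02. These are 25% in all, against 3.74% of all genes tested. CCN1, a matricellular protein, rose in SW1783 (1.15; HT29 -0.26), CCN2 gave a difference of 0.86, and THBS1 rose in HT29 (0.66; SW1783 -0.29). ACTA2 (0.75) was not called without HT29 vehicle replicate 2, HT29 ACD replicates 1 or 2, SW1783 vehicle replicate 1 or SW1783 ACD replicate 2, at 0.58 to 0.75. Of 22 growth factor response genes 1 was more positive in SW1783 and 2 in HT29 (13.6% in all). MYC rose in SW1783 (0.69; HT29 0.02). FOS fell in SW1783 (-0.81; -0.57 and not called without SW1783 ACD replicate 3), and EGR1 rose in HT29 (0.67; 0.58 and not called without HT29 ACD replicate 3).

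Glucose genes held called differences for HKDC1 and TXNIP of 22 (9.09%, against 3.74% of all genes tested). Of 19 interferon genes IFI44 (-0.70) and IFI44L (-0.87) passed (10.5%). Without HT29 ACD replicate 3 they were -0.46 and -0.54, and without HT29 vehicle replicate 1 IFI44L was -0.71, none of these called. IFI44L was also not called without SW1783 vehicle replicates 2 or 3 or any 1 of the SW1783 ACD libraries. Of 6 metallothioneins MT1E (0.64) and MT2A (0.70) passed (33.3%). Without HT29 vehicle replicate 1 they were 0.51 and 0.56, and without SW1783 vehicle replicate 1 MT1E was 0.58, none called. SQSTM1 was the 1 of 23 autophagy genes called (0.59), a share of 4.35% that is near that of all genes. It was 0.53, 0.58, 0.55 and 0.58, not called, without HT29 vehicle replicate 1, HT29 ACD replicate 2, SW1783 vehicle replicate 1 and SW1783 ACD replicate 2.

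No difference was called among 14 heat shock genes, 7 sodium and calcium channel genes or 30 cytosolic ribosomal protein genes. Of the heat shock genes 11 were negative, with a list median of -0.25, and 8 had an adjusted p under 0.05 at any size. All 30 ribosomal protein genes leaned to SW1783, with a median of 0.22, and 6 had an adjusted p under 0.05 at any size. Of all genes tested, 11.4% had a negative and 6.18% a positive difference with such an adjusted p, and the median difference was -0.02. The median change of the list was 0.07 in SW1783 and -0.15 in HT29. RPS29, a ribosomal protein gene, was among those higher in HT29 vehicle replicate 1, which stood apart (2589 against 1811 and 1461). How far the lean rests on that library is not given here. None of the 18 marker genes tested of the lines had a called difference. Of the study's network genes, 10 of 430 for brain were more positive in SW1783 and 9 in HT29, and 5 and 13 of 162 for intestine; these shares are 4.42% and 11.1% in all, against 3.74% of all genes tested, and draw on the study's own organ networks. With separate fits the HT29-sided counts were 3 and 7.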
